A study of Homo sapiens with 21 samples.

Results

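The genes described here are the subunit genes of hypoxia-inducible factor 2 and 7 genes listed as its targets. They were 9 of the 26809 genes measured, and they were chosen by name: EPAS1, ARNT, VEGFA, NDRG1, ANGPTL4, CCND1, CA12, ADM and BNIP3. Whether the factor drives each of the 7 in the cells used was not tested. All 9 had counts in every library and passed the filter on low counts. RNA-seq was done on 786-O, an established human line of clear cell renal cell carcinoma. The genotype JMJD6 KO was made with guide JMJD6 sg2 in 3 libraries and with guide JMJD6 sg4 in 3 libraries, and the genotype JMJD6 WT carried the guide sgCtrl in 3 libraries, called the control libraries below. The titles and the extraction text speak of infection with guide RNAs, while the treatment text describes siRNA transfection, so the groups were taken from the titles. The replicates are called triplicates without a statement that they were separate cultures, so the p-values measure the spread between these libraries, which may be technical. The labels do not say whether the infected cells were pools or single clones.

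As background, hypoxia-inducible factors are pairs of an oxygen-sensitive alpha subunit and the constant partner ARNT, also called HIF-1β. With oxygen present, the EGLN hydroxylases mark the alpha subunit and VHL directs its destruction, whereas cells without functional VHL keep the factor and its targets on. The 786-O line lacks functional VHL and makes no functional HIF-1α, so its hypoxia-type programme runs through HIF-2α, the product of EPAS1. JMJD6 belongs to the same broad family of 2-oxoglutarate-dependent oxygenases as the EGLN enzymes. All groups compared here, the control libraries included, share the VHL-null background.

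The pair binds DNA at the core of the hypoxia response element, written ACGTG or GCGTG. RefSeq promoter windows of assembly GRCh38.p14, which run from 250 bases before a gene's start to 50 bases after it, matched 6 of the 9 genes. Windows were not used for VEGFA, NDRG1 and CCND1. ACGTG and GCGTG were searched on both strands, where they read CACGT and CACGC in reverse, and the palindrome CACGTG counts on each strand. At least 1 match lay in 5 of the 6 windows, against 48.4% of all 35116 windows (21.4% for ACGTG and 36.5% for GCGTG). The stretches around the matches before the start are printed 5′ to 3′ on the gene's strand, with the matched letters in capitals, because these are the letters that the HIF pair is known to read.
EPAS1 chr2:46297278-46297306 (+): gggcctgccggcGCGTGcccgcccacaca
ANGPTL4 chr19:8363909-8363937 (+): ggaaagaagagtCACGTctcccacggttc
CA12 chr15:63382064-63382092 (-): gcggatctcaccCACGCctgccagcagct
ADM chr11:10304960-10304988 (+): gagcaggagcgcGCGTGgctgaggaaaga
BNIP3 chr10:131982011-131982078 (-): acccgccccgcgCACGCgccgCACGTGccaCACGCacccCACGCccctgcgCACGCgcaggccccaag
BNIP3 had 6 matches, from 143 to 104 bases before its start, and CA12 had 2, of which the one after the start is not printed. The match lay 117 bases before the start of EPAS1 and 101 bases before that of ADM. The printed matches of ANGPTL4 and CA12 both began 234 bases before the start. The ARNT window held none of these letters. A match is a description of the sequence and does not show that the factor binds there.

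JMJD6 itself was low in every knockout library. It was measured at 13.4, 11.3 and 12.9 TPM (transcript abundance per length, with the same total in each library) with sg2, at 8.69, 10.4 and 7.56 TPM with sg4 and at 32.7, 32.6 and 36.8 TPM in the control libraries. The groups did not overlap, and its log2 fold change was −1.33 ± 0.10 with sg2 and −1.78 ± 0.11 with sg4 (SE, quasi-likelihood test of edgeR with Benjamini-Hochberg adjustment over all genes tested, adjusted p = 1.28e-08 and 3.16e-11).

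In the control libraries the mRNA of 5 of the 7 targets averaged above that of EPAS1. NDRG1 led with a mean of 1946 TPM, followed by CCND1 at 730.5 TPM and VEGFA at 715 TPM. ADM at 256 TPM, CA12 at 237 TPM and EPAS1 at 217 TPM came next, then BNIP3 at 165 TPM and ANGPTL4 at 47.5 TPM. ARNT was lowest at 20.7 TPM, so that EPAS1 mRNA stood 10.5 times above the mRNA of its partner. The ranges over the 3 control libraries overlapped between CCND1 and VEGFA, between ADM and CA12 and between CA12 and EPAS1, and between no other neighbours in this order. NDRG1 ranked 58 among all 26809 genes by control TPM, and EPAS1 ranked 727.

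**Figure D1:**
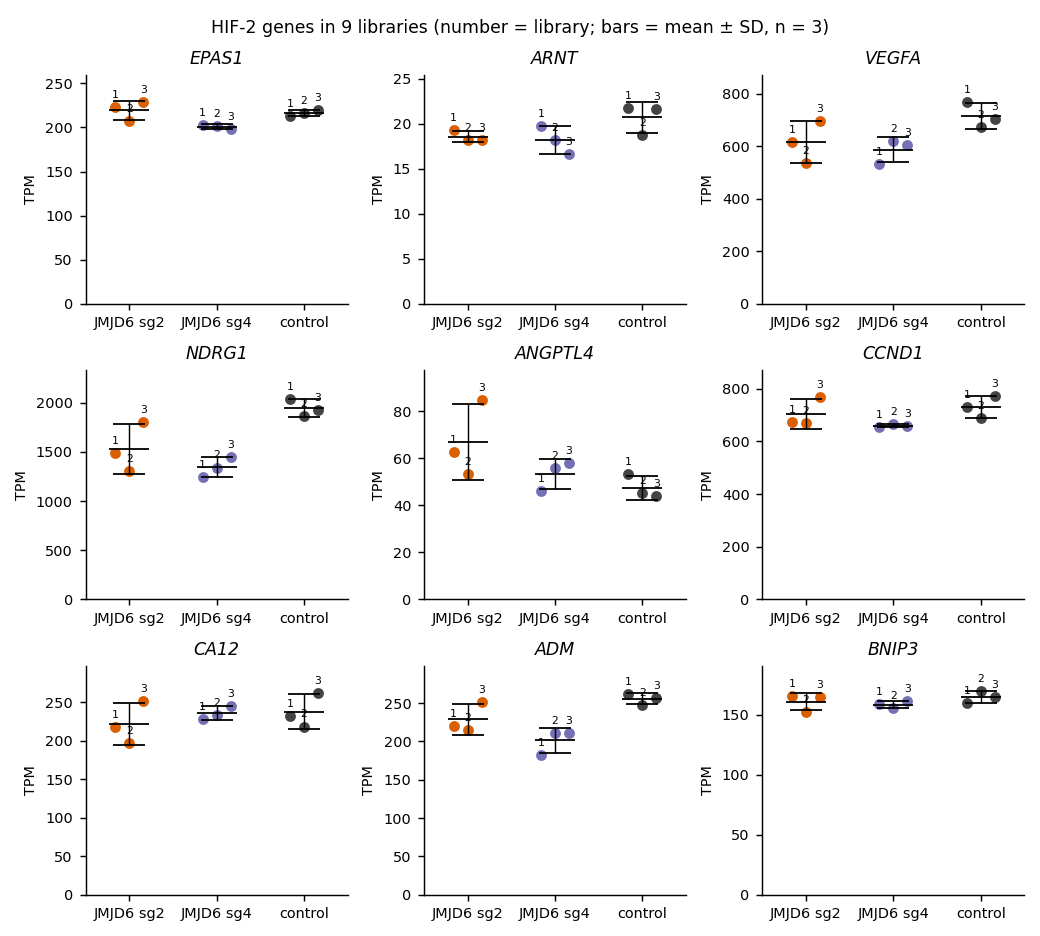
TPM of the 9 HIF-2 genes (y axis, from 0) in the JMJD6 sg2, JMJD6 sg4 and control libraries (x axis), each point a library with its replicate number and the bars the mean ± SD of 3 libraries. The 6 knockout libraries of NDRG1 lie between 1248 and 1800.4 TPM, below the lowest control at 1866 TPM, while CA12 and BNIP3 overlap between groups and sg2 library 3 is the highest knockout library for 7 of the 9 genes.

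With JMJD6 knocked out, 4 of the 9 genes passed the test with both guides averaged, and only NDRG1 also passed with each guide alone. Neither subunit passed. With both guides averaged and set against the controls, NDRG1, VEGFA and ADM were lower and ANGPTL4 was higher, while EPAS1, ARNT, CCND1, CA12 and BNIP3 did not pass the test. These 4 calls of 9 stand beside 1877 calls among 13530 genes tested, or 13.9% (6.92% higher and 6.95% lower). The median log2 fold change was −0.04 over the 9 genes and −0.01 over all genes tested. With sg2 alone, NDRG1 was lower and ANGPTL4 higher, against 10.4% of all genes called (5% higher and 5.36% lower). With sg4 alone, NDRG1 and ADM were lower, against 8.43% of all genes called (4.65% higher and 3.78% lower). The 2 guides share the same control libraries, so their values are not independent of each other. In bulk RNA, fewer cells expressing a gene and less of its RNA per cell cannot be told apart.

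The subunits come first. EPAS1 (NCBI gene 2034, chromosome 2), which encodes HIF-2α, stood at 223, 207 and 228 TPM with sg2, at 203, 202 and 198 TPM with sg4 and at 213, 217 and 220.3 TPM in the control libraries. The sg4 libraries lay below every control in TPM, and the sg2 libraries lay on both sides. In counts the log2 fold change was 0.05 ± 0.05 with sg2 and −0.02 ± 0.05 with sg4, and its 95% interval for both guides ran from −0.08 to 0.10 (edgeR adjusted p = 0.909). EPAS1 was also the steadiest of the 9 genes. Its within-group SD was 0.04 on the log2 CPM scale (CPM, counts relative to the normalised library size, with no length correction), at percentile 4.16 among the 6420 genes whose mean log2 CPM was 5 or more.

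ARNT (NCBI gene 405, chromosome 1), the partner subunit, stood at 19.3, 18.2 and 18.2 TPM with sg2, at 19.8, 18.1 and 16.7 TPM with sg4 and at 21.8, 18.7 and 21.7 TPM in the control libraries. Of the 6 knockout libraries, 4 lay below every control, and the second control library was close to them. The log2 fold change for both guides was −0.12 ± 0.07, with a 95% interval from −0.25 to 0.02 (edgeR adjusted p = 0.273).

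Among the targets, NDRG1 (NCBI gene 10397, chromosome 8), a stress- and differentiation-linked gene that is among the most hypoxia-responsive transcripts known, changed most firmly. It reached 1487, 1305 and 1800.4 TPM with sg2, 1248, 1342 and 1451 TPM with sg4 and 2044, 1866 and 1927 TPM in the control libraries. All 6 knockout libraries lay below every control, and sg2 library 3 came closest. The log2 fold change was −0.38 ± 0.06 for both guides (95% interval −0.51 to −0.25, edgeR adjusted p = 0.000276), or 1.30-fold lower. It was −0.31 ± 0.08 with sg2 (edgeR adjusted p = 0.00800) and −0.44 ± 0.08 with sg4 (edgeR adjusted p = 0.000577). With both guides the call was kept whichever of the 9 libraries was left out (edgeR adjusted p between 3.19e-06 and 0.00655). With sg2 alone it was lost without sg2 library 1, sg2 library 2 or control library 1 (edgeR adjusted p = 0.0537, 0.0635 and 0.0575) and in DESeq2 (adjusted p = 0.102).

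The secreted signals of the programme did not move in a single direction. VEGFA (NCBI gene 7422, chromosome 6), the main angiogenic growth factor of these tumours, was at 616, 535 and 695 TPM with sg2, at 534, 621 and 606 TPM with sg4 and at 768, 674 and 702 TPM in the control libraries. Of the 6 knockout libraries, 5 lay below every control, and sg2 library 3 lay inside the control range. For both guides the log2 fold change was −0.19 ± 0.06 (95% interval −0.32 to −0.06, edgeR adjusted p = 0.0389), or 1.14-fold lower. With sg2 it was −0.19 ± 0.07 and with sg4 −0.20 ± 0.07, and neither passed by itself (edgeR adjusted p = 0.0990 and 0.0920). The call for both guides was lost without sg2 library 1, sg2 library 2, sg4 library 1, control library 1 or control library 2 (edgeR adjusted p = 0.0790, 0.0833, 0.0917, 0.294 and 0.0508). It was also lost with the length trend of the libraries removed (edgeR adjusted p = 0.0591), in limma on log2(TPM + 1) (adjusted p = 0.0547) and in DESeq2 (adjusted p = 0.214).

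ADM (NCBI gene 133, chromosome 11), the vasodilator peptide adrenomedullin, was at 219.7, 215 and 252 TPM with sg2, at 182, 211 and 211 TPM with sg4 and at 262, 248 and 257 TPM in the control libraries. Again 5 of 6 knockout libraries lay below every control, and sg2 library 3 reached the control range. The log2 fold change was −0.19 ± 0.06 for both guides (edgeR adjusted p = 0.0391), −0.12 ± 0.07 with sg2 (edgeR adjusted p = 0.322, not passed) and −0.26 ± 0.07 with sg4 (edgeR adjusted p = 0.0221). For both guides, the call held in 3 of the 9 fits with a library left out and was lost without sg2 library 1, sg2 library 2, sg4 library 1 or any control library (edgeR adjusted p from 0.0730 to 0.186). With sg4 alone it was lost without sg4 library 1 or control library 1 (edgeR adjusted p = 0.142 and 0.105).

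ANGPTL4 (NCBI gene 51129, chromosome 19), a secreted inhibitor of lipoprotein lipase, went the other way. It was at 62.5, 53.4 and 84.9 TPM with sg2, at 46.1, 56.0 and 58.0 TPM with sg4 and at 53.4, 45.1 and 43.9 TPM in the control libraries. Of the 6 knockout libraries, 5 lay above every control, the second sg2 library by under 0.1 TPM and not in CPM, and sg4 library 1 lay inside the control range. The log2 fold change was 0.38 ± 0.11 for both guides (95% interval 0.16 to 0.61, edgeR adjusted p = 0.0207), or 1.30-fold higher. It was 0.51 ± 0.12 with sg2 (edgeR adjusted p = 0.00886) and 0.25 ± 0.13 with sg4 (edgeR adjusted p = 0.225, not passed). The call for both guides was lost without sg4 library 3, control library 2 or control library 3 (edgeR adjusted p from 0.0513 to 0.0972), in limma on log2(TPM + 1) (adjusted p = 0.122) and in DESeq2 (adjusted p = 0.130). That for sg2 was lost without sg2 library 3 (edgeR adjusted p = 0.0823), in limma on log2(TPM + 1) (adjusted p = 0.0726) and in DESeq2 (adjusted p = 0.0768).

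**Figure D2:**
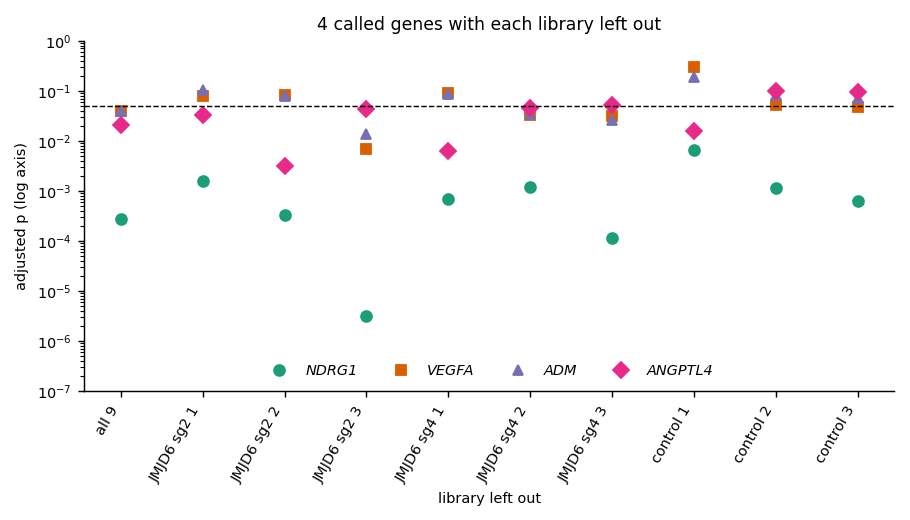
Adjusted p (y axis, log scale; dashed line at 0.05) of NDRG1, VEGFA, ADM and ANGPTL4 for the mean of both JMJD6 guides over control in edgeR, with all 9 libraries and with each library left out (x axis). NDRG1 stays under the line throughout, at most 0.00655, while VEGFA reaches 0.294 and ADM 0.186 without control library 1.

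The other 3 targets did not pass the test with either guide. CCND1 (NCBI gene 595, chromosome 11) encodes cyclin D1, which drives cells into the cycle and is a HIF-2 target particular to renal carcinoma cells. It was at 674, 671 and 770.4 TPM with sg2, at 656, 666 and 657 TPM with sg4 and at 730.2, 689 and 772 TPM in the control libraries. Every knockout library but the third of sg2 lay below the lowest control, yet only 3 did so in CPM, and the log2 fold change was −0.04 ± 0.04 for both guides (95% interval −0.13 to 0.05, edgeR adjusted p = 0.613).

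CA12 (NCBI gene 771, chromosome 15), a carbonic anhydrase of the cell surface that handles acid, was at 217, 197 and 251 TPM with sg2, at 228, 233 and 245 TPM with sg4 and at 232, 218 and 262 TPM in the control libraries. The groups overlapped, with a log2 fold change of −0.07 ± 0.07 with sg2, 0.08 ± 0.07 with sg4 and 0.01 ± 0.06 for both guides (95% interval −0.11 to 0.13, edgeR adjusted p = 0.963). BNIP3 (NCBI gene 664, chromosome 10), a mitochondrial protein of mitophagy and cell death, was at 166, 153 and 165 TPM with sg2, at 159, 155 and 161 TPM with sg4 and at 160.0, 169.6 and 165 TPM in the control libraries. Its groups overlapped too, and the interval for both guides ran from −0.09 to 0.12 on the log2 scale (edgeR adjusted p = 0.871).

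**Figure D3:**
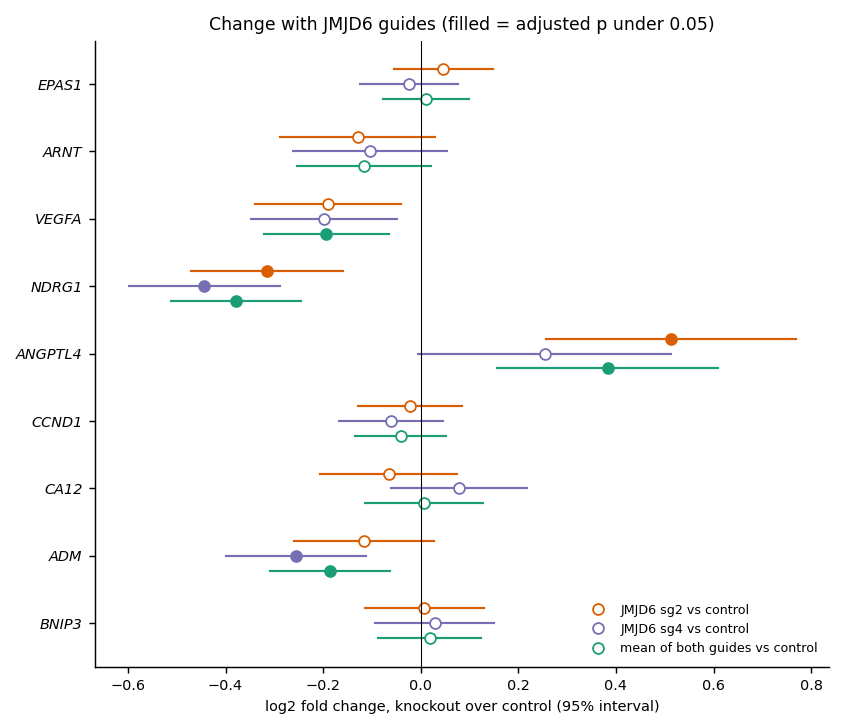
Log2 fold change (x axis) of the 9 HIF-2 genes (y axis) with JMJD6 sg2, with JMJD6 sg4 and with the mean of both guides, each over the control, with 95% intervals, and filled points where the edgeR adjusted p was under 0.05. NDRG1 is filled in all 3 contrasts, VEGFA (−0.19) only for the mean of both guides, and ANGPTL4 (0.38) is the only filled gene to the right of 0.

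A direct comparison set sg4 over sg2, and 0 of the 9 genes passed the edgeR test, beside 0.0591% of all genes tested. The edgeR values were under an unadjusted p of 0.05 for ANGPTL4 (log2 fold change −0.26 ± 0.12, unadjusted p = 0.0451) and CA12 (0.15 ± 0.07, unadjusted p = 0.0417). The share of all genes under that unadjusted threshold was not counted, so these 2 have no background. DESeq2 called 0 of the 9 genes. For VEGFA the difference was −0.01, with a 95% interval from −0.16 to 0.14, and for NDRG1 it was −0.13, with an interval from −0.28 to 0.03. For EPAS1 it was −0.07, with an interval from −0.17 to 0.03.

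The summed TPM of the 9 genes ranged from 3353 to 4264 with sg2, from 3277 to 3604 with sg4 and from 4145 to 4485 in the control libraries. The 3 sg4 libraries lay below every control, and the sg2 libraries overlapped with the controls. TPM were also lower over all genes tested. Their median log2 fold change in limma on log2(TPM + 1) was −0.08 with sg4 and −0.03 with sg2. In edgeR on counts it was −0.01 with sg4 and −0.002 with sg2. The part of this shift in the sums was not tested. NDRG1 made up the largest part of each sum.

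The spread between replicate libraries was uneven over the 9 genes. The within-group SD of log2 CPM was 0.25 for ANGPTL4, 0.16 for NDRG1, 0.15 for VEGFA, 0.12 for CA12 and 0.12 for ADM. The median over the same 6420 genes was 0.08, and these 5 targets stood at percentiles 99.7, 96.6, 94.3, 86.7 and 83.3. ARNT at 0.08, CCND1 at 0.07 and BNIP3 at 0.06 stood at percentiles 51.2, 40.9 and 18.3. The widest gaps were among the sg2 libraries, where the highest library exceeded the lowest by 1.59-fold for ANGPTL4, 1.38-fold for NDRG1 and 1.30-fold for VEGFA in TPM. NDRG1 differed between the highest and lowest control library by 1.10-fold.

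In some libraries most of the 9 genes deviated in the same direction. In sg2 library 2 all 9 genes lay below their group mean, and in sg4 library 1 that held for 8 of 9. In sg2 library 3, sg4 library 2 and sg4 library 3, 8 of 9 lay above it. In sg2 library 1, 5 of 9 lay below it, and in control libraries 1 to 3, 3, 7 and 6 of 9 did. The deviations of a gene in the 3 libraries of a group sum to 0. A low library therefore places the others of its group higher, and the counts of a group are not separate observations. The share of all genes on each side of their group mean was not counted, so these counts have no background. The second and the third sg2 library differed most in ANGPTL4, at −0.33 and 0.34 from the group mean on the log2 CPM scale, in NDRG1, at −0.20 and 0.24, and in VEGFA, at −0.18 and 0.17. EPAS1 deviated by −0.06 and 0.05 in the same libraries.

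Deviations from the group means were also correlated across the 9 libraries, as a description of points that share their library, its depth and its scaling. Among VEGFA, NDRG1, ANGPTL4, CA12, ADM and CCND1, a group picked after its values were seen, the 15 pairs had Pearson's r from 0.70 to 0.98, with a median of 0.81. EPAS1 had r from 0.49 to 0.76 with these 6 genes, BNIP3 from 0.08 to 0.55 and ARNT from −0.43 to −0.12. The usual r between other genes of such levels was not computed.

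**Figure D4:**
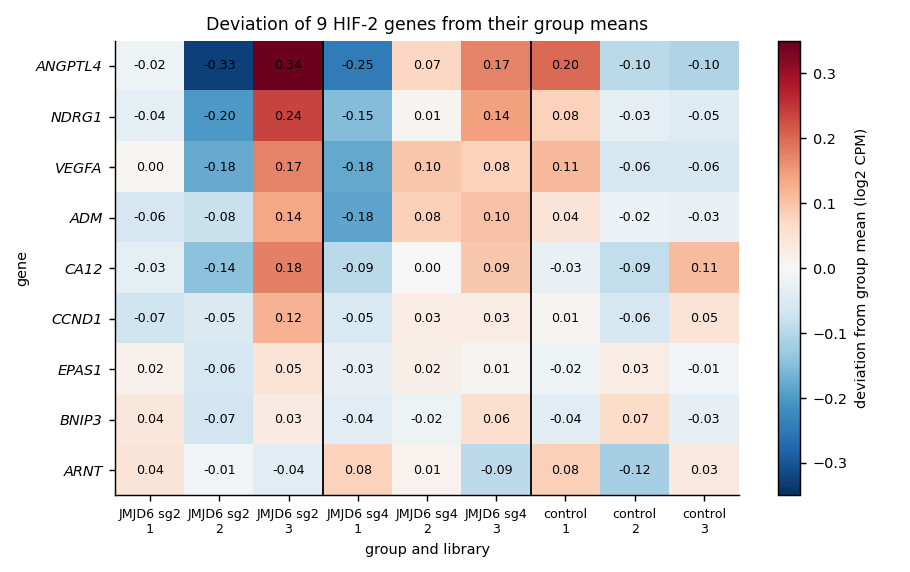
Deviation of each of the 9 HIF-2 genes (rows) from its group mean on the log2 CPM scale (colour, red above and blue below) in each library (columns, JMJD6 sg2, JMJD6 sg4 and control). The column of sg2 library 2 is below 0 in all 9 rows, with ANGPTL4 at −0.33, and that of sg2 library 3 is above 0 in 8 rows, with ANGPTL4 at 0.34.

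Other HIF targets were listed by whether HIF-2 or HIF-1 is known as their main driver. For the 7 targets described above, the median deviation from the group mean in libraries 1 to 3 was −0.03, −0.14 and 0.17 with sg2, −0.15, 0.03 and 0.09 with sg4 and 0.04, −0.06 and −0.03 in the control libraries, on the log2 CPM scale. Over the 14 tested genes of the HIF-2-favoured list it was −0.02, −0.07 and 0.11 with sg2, −0.08, −0.002 and 0.08 with sg4 and 0.01, 0.004 and −0.03 in the control libraries. The list had the sign of the 7 targets in 7 of the 9 libraries and the opposite sign, close to 0, in sg4 library 2 and control library 2. Over the 27 tested genes of the HIF-1-favoured list it was −0.02, −0.003 and 0.01 with sg2, −0.02, −0.01 and 0.03 with sg4 and −0.03, 0.02 and 0.005 in the control libraries. This list also had the sign of the 7 targets in every sg2 library and in sg4 libraries 1 and 3, at smaller values. Signs inside a group depend on one another, and whether the lists differ in sharing the signs of the 7 targets was not tested.

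The HIF-2-favoured list held 14 tested genes of 17 measured, and with both guides 4 of them fell and 1 rose, beside 6.95% lower and 6.92% higher among all genes tested, with a median log2 fold change of −0.05. TGFA, a ligand of the EGF receptor, fell, and was at 448 ± 30.2 TPM with sg2, 434 ± 12.2 TPM with sg4 and 559 ± 19.2 TPM in control libraries (SD, n = 3 each; log2 fold change −0.28 ± 0.05, edgeR adjusted p = 0.000115). POU5F1, a pluripotency factor whose reads may be shared with pseudogene copies and are uncertain, fell by 0.71 ± 0.13 on the log2 scale from a low level (edgeR adjusted p = 0.000763). SLC2A1, the glucose carrier GLUT1, fell by 0.16 ± 0.05 on the same scale (edgeR adjusted p = 0.0427), and EGLN3 was the fourth gene to fall. FLT1 was at 0 in every library.

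On the HIF-1-favoured list 4 of 27 tested genes rose and 3 fell, beside 6.92% higher and 6.95% lower among all genes tested, with a median log2 fold change of 0.00. PGK1 and LDHA, enzymes of glycolysis and lactate formation that have pseudogene copies, rose by 0.20 ± 0.05 and 0.17 ± 0.04 on the log2 scale (edgeR adjusted p = 0.00505 and 0.00762). MXI1, an antagonist of MYC, and P4HA1, a collagen prolyl hydroxylase, fell by 0.25 ± 0.07 and 0.16 ± 0.05 on the log2 scale (edgeR adjusted p = 0.0161 and 0.0235). CA9, a HIF-1 target and the sister enzyme of CA12, was low, at 1.19 ± 0.61 TPM with sg2, 1.46 ± 0.55 TPM with sg4 and 1.49 ± 0.26 TPM in the control libraries (SD, n = 3 each).

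Of the subunits and regulators of the pathway, 2 of 10 tested genes fell and 0 rose in the edgeR test of both guides, against 13.9% of all genes called. A count of 2 in so short a list is no result about the list. EGLN3, the hydroxylase that HIF itself induces, was at 95.2, 92.0 and 107 TPM with sg2, at 94.1, 95.2 and 99.5 TPM with sg4 and at 122, 131 and 127 TPM in the control libraries. All 6 knockout libraries lay below every control for EGLN3, and it fell by 0.32 ± 0.05 on the log2 scale (edgeR adjusted p = 0.000267). CITED2, which competes with HIF for its coactivators, fell by 0.24 ± 0.04 on the log2 scale (edgeR adjusted p = 0.000588), with 429 ± 13.2 TPM in sg2, 408 ± 8.06 TPM in sg4 and 514 ± 8.52 TPM in control libraries (SD, n = 3 each).

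The other regulators did not pass with both guides. VHL mRNA was at 27.9 ± 1.57 TPM with sg2, 25.6 ± 2.33 TPM with sg4 and 27.1 ± 0.58 TPM in the control libraries (SD, n = 3 each), a level that says nothing of the protein. HIF1A mRNA was at 31.3 ± 2.48 TPM with sg2, 34.2 ± 1.75 TPM with sg4 and 35.7 ± 4.59 TPM in the control libraries (SD, n = 3 each), so that EPAS1 was the main alpha subunit mRNA in each group. EGLN1, EGLN2, HIF1AN, EP300, CREBBP and ARNT2 had log2 fold changes from −0.18 to −0.05 for both guides, and CREBBP, a coactivator, passed with sg4 alone (−0.20 ± 0.06, edgeR adjusted p = 0.0448). HIF3A was at or near 0 in every library.

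**Figure D5:**
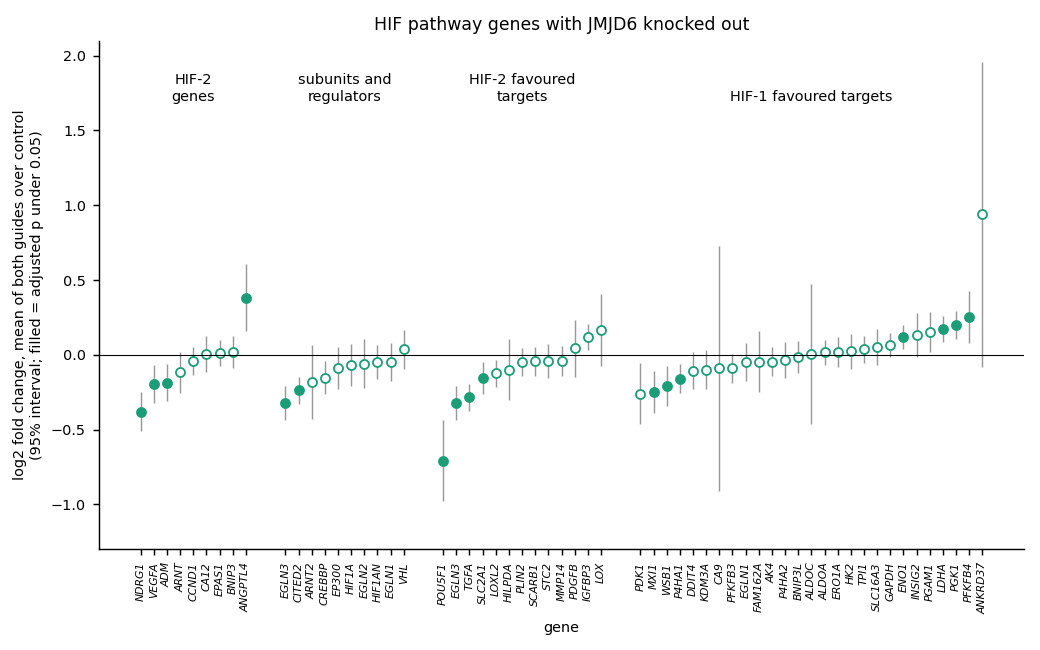
Log2 fold change of the mean of both JMJD6 guides over control (y axis, 95% intervals, filled points for edgeR adjusted p under 0.05) for the 9 HIF-2 genes, the tested pathway subunits and regulators, and other targets favoured by HIF-2 (13 of the 14 tested) or by HIF-1 (x axis, ordered by value inside each group). Both directions appear among filled points, with NDRG1 at −0.38, TGFA at −0.28 and ANGPTL4 at 0.38, and the wide intervals belong to genes of low count such as CA9 and ANKRD37.

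Partners of the proteins were measured too. The VEGF receptor gene KDR had at most 0.103 TPM in any library, and LPL, the enzyme that ANGPTL4 blocks, was at or near 0. Among the partners of cyclin D1, CDK4 averaged 211 TPM with sg2, 204 TPM with sg4 and 208 TPM in the control libraries. Of the 12 tested partners, 3 rose and 2 fell with both guides, beside 6.92% higher and 6.95% lower among all genes tested. NRP1, a VEGF co-receptor, and CDK6, a kinase that cyclin D1 activates, rose by 0.23 ± 0.06 and 0.19 ± 0.05 on the log2 scale (edgeR adjusted p = 0.00868 and 0.0110), as did RB1, the substrate of that kinase, by 0.18 ± 0.06 (edgeR adjusted p = 0.0251). CDKN1A, an inhibitor of cyclin-dependent kinases, and BCL2, which binds BNIP3, fell by 0.28 ± 0.05 and 0.43 ± 0.12 on the same scale (edgeR adjusted p = 0.000206 and 0.0174).

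The genes whose log2 CPM followed that of EPAS1 most closely over the 9 libraries were sought among the 10204 genes whose mean log2 CPM was 3 or more. They were the readthrough gene RPL36A-HNRNPH2 (Pearson's r = 0.97), which shares reads with its component genes, ZCRB1 (0.93) and FMNL1 (0.91), and PPP1R13B was the most opposite (−0.96). The same search for VEGFA gave FCHSD1 (0.98), MORN4 (0.95), MYPOP (0.95) and, most opposite, MCM4 (−0.99), a subunit of the replication helicase. These are extremes of a long ranking over libraries that share depth scaling and groups. MCM4 stood at 147, 158 and 139 TPM with sg2, at 159.5, 139 and 137 TPM with sg4 and at 134, 140.1 and 145 TPM in the control libraries. Its highest values were in sg2 library 2 and sg4 library 1, where VEGFA was lowest, and it did not pass the test with both guides (log2 fold change 0.13, edgeR adjusted p = 0.108).

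Isoforms were not compared. VEGFA counts were spread over 20 transcripts at 4.21% to 6.54% each, where an even split would give 5%, and ARNT counts over 5 transcripts at 19.2% to 22.2%, where it would give 20%. The shares were less even for NDRG1, with 4 transcripts at 21.4% to 31.3%, for CA12, with 4 at 20.8% to 30.7%, and for ANGPTL4, with 3 at 7.27%, 37.1% and 55.6%. EPAS1, CCND1, ADM and BNIP3 had 1 transcript each in the files.

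The libraries held 14224263 to 16300347 estimated counts. Markers of the labelled renal epithelial cell type were present, with PAX8 at 127 TPM or more and KRT8 at 605 TPM or more in all libraries, and endothelial markers summing to at most 0.256 TPM with CDH5 and EMCN at 0. The 9 fibroblast and pericyte markers summed to 19.7 to 28.3 TPM in knockout libraries and 34.5 to 65.1 TPM in control libraries. Of the 7 tested with both guides, 3 were lower (COL1A2, LUM and ACTA2) and 4 were not called. PDGFRB, RGS5, COL1A1 and THY1 overlapped between knockout and control libraries. COL1A2 was at 7.49, 0.53 and 0.05 TPM in control libraries 1 to 3. It was at 0 in 2 libraries, and POSTN was at 0 in 7. The 6 leukocyte markers summed to 53.5 to 63.2 TPM in knockout libraries and 66.4 to 86.6 TPM in control libraries. CD68 made up nearly all of that sum, with PTPRC at 0 in 8 libraries and CD3E at 0 in 9. With both guides CD68 was called lower. CSF1R, the other tested marker of this list, was called higher. It was at 1.58 to 2.57 TPM in knockout libraries and 1.13 to 1.25 TPM in control libraries. The part of either list in the changes of the HIF-2 targets was not tested. Control library 1, which had the highest fibroblast sum, is the library whose removal took VEGFA to an edgeR adjusted p of 0.294 and left NDRG1 called at 0.00655. Libraries also differed in how counts depended on transcript length, with the 10% of genes of longest transcripts against the 10% of shortest at 0.20 in control library 3, −0.20 in sg4 library 3 and −0.13 in sg4 library 2 on the log2 scale, and within 0.05 of 0 in the other 6 libraries.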

How the data were processed

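RNA of 9 libraries of 786-O cells was used. Per the file headers, the authors deposited a Salmon table per library with an estimated count, a length and a TPM for each transcript. The deposited estimated counts held whole numbers throughout, and how they were rounded is not given in the sources used here. The deposited TPM correct for effective length and have the same total in each library, per the file headers. Per the submitters' processing notes, the tools include cutadapt 1.12, STAR 2.5.2b, Salmon, DESeq2 and the builds hg19 and GRCh37 without roles. Whether counting used strand is not given in the sources used here, and overlapping genes of opposite strand may share reads. The ChIP-seq peak lists of the series were not used here, because no annotation of their build was at hand.

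Counts and TPM were summed per gene. Of 60422 transcript accessions, 58031 (96.0%) matched the RefSeq gene table of GRCh38.p14, and the unmatched ones held 1.33% to 1.65% of a library's counts. No 2 libraries had identical counts. All 9 libraries entered a single edgeR 4.0.16 quasi-likelihood fit (R 4.3.3, limma 3.58.1) with TMM normalisation and filterByExpr, which kept 13530 genes. Tests were 2-sided, with Benjamini-Hochberg adjustment over all genes tested, and calls required an adjusted p under 0.05. Intervals are at 95%. CPM used normalised library sizes and, on the log2 scale, a prior count of 2. Alternatives were other scalings, no count filter, DESeq2 1.42.0, limma on log2(TPM + 1), the replicate number as a block, removal of a length trend fitted by loess with a span of 0.5, fits to only the groups compared, and each library left out. The fit was tested on simulated data.

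The 9 genes, the gene lists and the tests were chosen with earlier results of these data known. Besides these genes and JMJD6, the text names the pathway's subunits and regulators, up to 4 called genes per list by smallest adjusted p, and the genes most and least correlated with EPAS1 and VEGFA. SLC2A1, RB1, CA9, FLT1, KDR, LPL and CDK4, and genes named for their markers, were chosen after their values were seen. A few listed genes are counted but not reported here.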

Additional observations from a re-analysis of the deposited data

How the results depend on the processing

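For both guides against control, NDRG1 and ADM kept their call in all 8 alternatives that used every library, and the calls of VEGFA and ANGPTL4 were lost in 5 and 2 of them. Deviations of libraries with the same replicate number had correlations from −0.369 to 0.165. Libraries of different number were not compared, so whether the numbers mark matched sets cannot be told. With the replicate block VEGFA had an edgeR adjusted p of 0.0599, or 0.0813 with the length trend removed as well. Genes of the 9 called changed to 2 in limma on log2(TPM + 1) and 2 in DESeq2 for both guides, to 1 and 0 with sg2, and to 4 with sg4 without a count filter. Genes called in all changed to 866 with sg2 in limma on TPM, and for sg4 over sg2 to 72 without a filter, 2 with the replicate block, 1 in limma on TPM and 26 in DESeq2. With single libraries left out, genes called ranged from 938 to 1878 for both guides, 735 to 1595 with sg2, 606 to 1227 with sg4 and 0 to 49 for sg4 over sg2, and of the 9 genes 1 to 4, 1 to 2, 1 to 3 and 0 to 0 were called. Limma on TPM gave 318 higher and 1056 lower genes for both guides, against 936 and 941 in edgeR, 228 and 638 with sg2 (677 and 725) and 179 and 660 with sg4 (629 and 512). The length trend with the block gave 1016 and 670 for both guides and 614 and 320 with sg4. No scaling moved the median of all genes by over 0.1 on the log2 scale. In CPM in place of TPM, knockout libraries below every control numbered 2 for EPAS1, 3 for CCND1 and 1 for BNIP3, and 1 lay above every control for CCND1, CA12 and BNIP3.

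Small changes that were not called turned sign. With the length trend removed CCND1 was 0.000438 with sg2, EPAS1 0.0245 with sg4 (0.0241 with the block) and BNIP3 −0.0152 for sg4 over sg2 (−0.0153 with the block). In limma on TPM, EPAS1, CA12 and BNIP3 were −0.0453, −0.0555 and −0.0456 for both guides, BNIP3 −0.0355 with sg2, CA12 −0.00904 and BNIP3 −0.0557 with sg4, and ARNT −0.0302 and BNIP3 −0.0201 for sg4 over sg2. With single libraries left out, values ranged for CA12 from −0.0372 to 0.0637 with both guides and from −0.156 to 0.00302 with sg2, for CCND1 from −0.0813 to 0.0159 and BNIP3 from −0.0104 to 0.0410 with sg2, and for sg4 over sg2 from −0.0121 to 0.0471 for BNIP3, −0.0933 to 0.0813 for VEGFA, −0.0749 to 0.0223 for CCND1 and −0.00942 to 0.0718 for ARNT. The causes were not tested. Depths of 14224263 to 16300347 counts leave ANKRD37 and CA9 with wide intervals.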

Other observations

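Relatives of the HIF-2 genes were also measured. Of 17 tested paralogs, 2 fell with both JMJD6 guides and 0 rose in the edgeR test, a share near the 13.9% called among all genes, so the count is no result about the paralogs. VEGFB, a growth factor related to VEGFA, fell by 0.26 ± 0.07 on the log2 scale (edgeR adjusted p = 0.00890), with 71.4 ± 4.83 TPM in sg2, 77.2 ± 5.81 TPM in sg4 and 92.6 ± 5.06 TPM in control libraries (SD, n = 3 each). ANGPTL2 fell by 1.11 ± 0.30 on the log2 scale (edgeR adjusted p = 0.0146) from a low level, with 0.87 ± 0.23 TPM in sg2, 0.63 ± 0.16 TPM in sg4 and 1.68 ± 0.69 TPM in control libraries (SD, n = 3 each). BNIP3L, the close relative of BNIP3, had a log2 fold change of −0.01 ± 0.05 and CCND3, a relative of CCND1, one of 0.11 ± 0.07, and neither passed. CCND2 stayed at 0.01 TPM on average in each group. The median log2 fold change of the tested paralogs was 0.01, beside −0.01 over all genes tested.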
